A study of Mus musculus with 8 samples.

Results

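The genes described here encode the nuclear subunits of oxidative phosphorylation, the machinery of the inner mitochondrial membrane that passes electrons to oxygen and makes ATP. They were taken as the genes whose platform symbol begins with Nduf followed by a, b, c, s or v and a number, is Sdha to Sdhd, begins with Uqcr or Atp5, or begins with Cox, a number from 4 to 8 and a letter. The rule found 75 of the 19958 genes with a value on the arrays, covered by 420 of 208881 probe sets. Complex I was represented by 32 genes, complex II by 4, complex III by 6, complex IV by 17 and complex V by 12, and a further 4 genes with matching symbols encode proteins outside the complexes. The rule used names only and no measured value.

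Complexes I to IV form the respiratory chain. Complex I (NADH dehydrogenase) and complex II (succinate dehydrogenase) take electrons from NADH and succinate and pass them to coenzyme Q, complex III (the cytochrome bc1 complex) passes them on to cytochrome c, and complex IV (cytochrome c oxidase) reduces oxygen. Complexes I, III and IV pump protons, and complex V (ATP synthase) uses the proton gradient to make ATP. Some core subunits of complexes I, III, IV and V are encoded by mitochondrial DNA and fall outside the rule. Adult haematopoietic stem cells are known for low mitochondrial respiration and a reliance on glycolysis, whereas fetal liver stem cells divide rapidly.

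RNA was measured on Affymetrix Mouse Gene 1.0 ST arrays, 1 per sample, in mouse cells sorted by flow cytometry as Lin-Sca1+cKit+, a gate for blood stem cells and their earliest progeny. The groups were Hmga2+/+ cells from E14.5 fetal liver (wild-type fetal, n = 3), Hmga2-/- cells from E14.5 fetal liver (knockout fetal, n = 3) and Hmga2+/+ bone marrow cells of mice aged 8 to 12 weeks (adult, n = 2). Hmga2 encodes a chromatin-bound architectural protein of embryonic cells. No adult Hmga2-/- group was analysed, age and organ changed together between fetal and adult cells, and the labels give neither the strain nor whether animals were pooled.

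Values are log2 intensities after RMA, averaged over the probe sets of a gene, and compare arrays for 1 gene but not genes with each other. Hmga2 averaged 9.02 in wild-type fetal, 5.95 in knockout fetal and 6.90 in adult cells, so in fetal liver its level went with the genotype labels, and it was also lower in adult than in fetal wild-type cells. Of the markers of the sort gate, Kit lay between 9.64 and 10.28 on all arrays. For Kit, too, every fetal array lay below both adult arrays. Its log2 difference from adult cells was -0.28 in wild-type fetal and -0.43 in knockout fetal cells. Neither was called by limma, and the latter had an unadjusted p under 0.05. Ly6a, which encodes Sca1, read 7.39, 6.64 and 6.65 in wild-type fetal cells, 5.59, 6.34 and 7.25 in knockout fetal cells, and 8.99 and 8.44 in adult cells, with a limma adjusted p of 0.0592 for wild-type fetal against adult and 0.0179 for knockout fetal against adult. A level of 5.97, the 95th percentile of 974 olfactory receptor genes, served as background. By this measure 69 of the 75 genes were above background in every group, 4 were below it in every group (Cox7b2, Cox8b, Ndufa4l2 and Atp5j), and Cox8c and Cox7a1 were above it in some groups. As these are bulk samples, fewer cells of a type and less RNA per cell cannot be told apart.

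Promoters are shown first, as a description of the genes, and a link between their letters and the differences below was not tested. RefSeq start-site windows (assembly GRCm38.p6, 250 bases before to 50 after the start) were matched for 61 of the 75 genes by gene ID, among them all 8 genes called higher in wild-type fetal than adult cells. They were searched on both strands for GCATGCG (a form of the NRF1 site), CCGGAAG (an ETS site of the kind bound by GABP), AAGATGG (YY1), AAGGTCA (ERR) and the E-box CACGTG. The windows of 4 of the 8 called genes held at least 1 match and are printed 5′ to 3′ with matches in capitals: Sdhb at chr4:140961021-140961320, plus strand, Uqcrc1 at chr9:108936398-108936697, plus strand, Atp5k at chr5:108434350-108434649, minus strand, and Ndufs4 at chr13:114388045-114388344, minus strand.
Sdhb: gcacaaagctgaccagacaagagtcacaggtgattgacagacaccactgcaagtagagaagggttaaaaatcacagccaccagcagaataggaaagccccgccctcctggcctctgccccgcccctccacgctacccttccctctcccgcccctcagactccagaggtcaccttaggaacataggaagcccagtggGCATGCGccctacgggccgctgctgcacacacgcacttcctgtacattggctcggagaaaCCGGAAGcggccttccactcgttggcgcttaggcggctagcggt
Uqcrc1: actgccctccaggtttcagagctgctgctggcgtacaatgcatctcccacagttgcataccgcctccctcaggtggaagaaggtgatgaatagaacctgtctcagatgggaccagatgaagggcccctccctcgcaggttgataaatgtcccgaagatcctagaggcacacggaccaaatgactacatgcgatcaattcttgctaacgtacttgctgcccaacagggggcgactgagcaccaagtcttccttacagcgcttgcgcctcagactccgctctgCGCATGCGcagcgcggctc
Atp5k: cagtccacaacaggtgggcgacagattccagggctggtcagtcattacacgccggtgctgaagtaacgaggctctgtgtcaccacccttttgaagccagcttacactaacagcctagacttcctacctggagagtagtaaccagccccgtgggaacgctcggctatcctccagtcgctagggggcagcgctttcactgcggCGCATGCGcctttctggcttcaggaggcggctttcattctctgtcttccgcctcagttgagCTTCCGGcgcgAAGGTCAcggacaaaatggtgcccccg
Ndufs4: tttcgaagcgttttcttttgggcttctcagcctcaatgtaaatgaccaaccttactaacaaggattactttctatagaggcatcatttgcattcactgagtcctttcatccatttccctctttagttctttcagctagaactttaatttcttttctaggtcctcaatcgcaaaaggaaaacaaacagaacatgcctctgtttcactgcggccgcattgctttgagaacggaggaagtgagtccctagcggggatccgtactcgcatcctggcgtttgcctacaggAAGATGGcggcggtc
In Sdhb, the NRF1 letters begin at position -54 from the start and the ETS letters at position 6. In Uqcrc1 and in Atp5k the NRF1 letters occur on both strands and overlap, beginning at positions 31 and 32 in Uqcrc1 and at -49 and -48 in Atp5k. Atp5k also holds an ETS match on the opposite strand at position 12 and an ERR match at 23, and Ndufs4 holds a YY1 match at 35. Over all matched genes, the NRF1 letters were found in 9 of 61 (14.8%), against 4.01% of all 27025 genes with such a window. The ETS letters were found in 14 (23%, against 9.93%), the YY1 letters in 11 (18%, against 7.28%), the ERR letters in 6 (9.84%, against 5.38%) and the E-box in 5 (8.2%, against 8.09%). The share of genes with a match of any kind was not counted, so the count of called genes with a match has no background beside it. A match describes the letters of a window and is not evidence that a factor binds there.

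The first comparison asked how wild-type fetal and adult cells differ. Of the 75 genes, 8 were called higher in wild-type fetal cells and none lower at an adjusted p under 0.05 (limma, Benjamini-Hochberg over all genes). Over all genes, 2.36% were called higher. The 8 genes come from each of the 5 complexes: Ndufv2, Ndufs4 and Ndufb5 of complex I, Sdhb of complex II, Uqcrc1 of complex III, Cox7a2 of complex IV, and Atp5k and Atp5c1 of complex V. Beyond these calls, 68 of 75 genes had a log2 difference above 0, with a median of 0.52 (quartiles 0.36 and 0.72, range -0.59 to 1.21), whereas the median over all genes was -0.06. Over the 9631 genes whose mean was above background the median was 0.15, and over the 70 oxidative phosphorylation genes among them it was 0.54. At an unadjusted p under 0.05, 38 were higher, against 11.3% of all genes, and 1 was lower. All 3 wild-type fetal arrays lay above both adult arrays for 42 genes, against 15.7% of all genes, and below both for 1. These shares were larger among the 9631 genes above background, of which 6016 had a difference above 0 and 456 were called higher. At the unadjusted threshold 2105 of them were higher, and 2681 were higher without overlap. For the 70 oxidative phosphorylation genes among them, the counts were 67, 8, 37 and 41 in the same order. The count of called genes changed with the arrays used: without wild-type fetal replicate 1, 2 or 3 it was 1, 3 or 1, without knockout replicate 1, 2 or 3 it was 4, 2 or 2, and without adult replicate 1 or 2 it was 7 or 2. In a fit of only these 2 groups none of the 75 was called, with 32 at an unadjusted p under 0.05. Calls over all genes fell as well. As reported, 471 genes were called higher, against 74 in that fit and 140 to 289 with a fetal array left out.

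**Figure D1:**
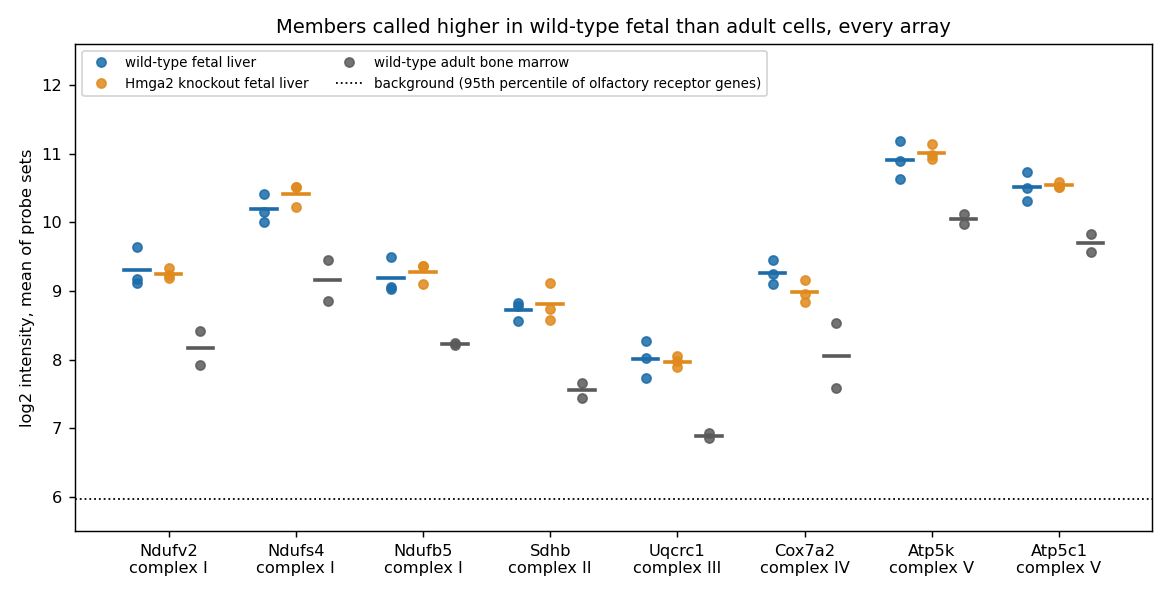
Log2 intensity (vertical axis) of the 8 genes called higher in wild-type fetal than adult cells, with a point per array, a bar at each group mean and a dotted line at the background level of 5.97. For each gene the fetal arrays of both genotypes lie above the adult arrays; levels are to be compared between groups of a gene and not between genes.

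In complex I, Ndufv2, an iron-sulfur core subunit of the NADH-binding arm, read 9.18, 9.12 and 9.64 on the wild-type fetal arrays, 9.34, 9.19 and 9.24 on the knockout arrays, and 8.42 and 7.92 on the adult arrays. All fetal arrays lay above both adult arrays, and wild-type fetal cells exceeded adult cells 2.20-fold (log2 difference 1.14, SE 0.22, adjusted p = 0.0286). The difference was positive for each of its 9 probe sets, with arrays that did not overlap for 7. Ndufs4, an accessory subunit that stabilises the NADH-binding arm, read 10.01, 10.15 and 10.41 in wild-type fetal, 10.22, 10.51 and 10.52 in knockout fetal, and 8.86 and 9.45 in adult cells. Its groups did not overlap either, with a 2.05-fold difference (log2 1.03, SE 0.22, adjusted p = 0.0402) that all 6 probe sets shared. Ndufb5, an accessory subunit of the membrane arm, read 9.06, 9.03 and 9.50, then 9.11, 9.37 and 9.36, against 8.24 and 8.21 in adult cells. The adult arrays were close together here, and the 1.97-fold difference (log2 0.98, SE 0.19, adjusted p = 0.0312) was positive in all 8 probe sets.

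The other complex I genes mostly pointed the same way without being called. Of 32 genes, 31 had a log2 difference above 0, with a median of 0.55, and 18 reached an unadjusted p under 0.05. Ndufa8, an accessory subunit on the intermembrane face, missed the threshold narrowly: it read 8.81, 8.88 and 9.15 in wild-type fetal cells against 7.68 and 8.21 in adult cells (log2 1.00, SE 0.23, adjusted p = 0.0503). Among the catalytic core, Ndufs1, which carries several iron-sulfur clusters, differed by 0.81 (SE 0.34, adjusted p = 0.243) and Ndufv1, which binds NADH and the flavin, by 0.51 (SE 0.32, adjusted p = 0.44). The median was 0.81 over the 5 core genes and 0.51 over the 27 accessory genes, and the difference between these classes was not tested. Ndufa7, named here after its values were seen, was the 1 gene of the complex below 0: its adult arrays read 8.74 and 6.91 and enclosed the wild-type fetal values of 8.19, 7.22 and 8.03.

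Complex II is wholly nuclear-encoded, and all 4 of its genes were measured. Sdhb, the iron-sulfur subunit, read 8.83, 8.56 and 8.79 in wild-type fetal, 9.12, 8.74 and 8.58 in knockout fetal, and 7.66 and 7.45 in adult cells. The fetal arrays all lay above the adult arrays, and the 2.25-fold difference between wild-type fetal and adult cells (log2 1.17, SE 0.20, adjusted p = 0.0196) was positive in all 9 probe sets. The flavoprotein gene Sdha, whose product oxidises succinate, read 9.46, 9.38 and 9.38 against 8.58 and 8.98 in adult cells, and was not called (log2 0.63, SE 0.20, adjusted p = 0.135). Of the membrane anchors, Sdhd differed by 0.41 (SE 0.32, adjusted p = 0.534) and Sdhc by -0.04 (SE 0.28, adjusted p = 0.953). The wild-type fetal values of Sdhc, 9.80, 9.88 and 9.87, lay between its adult values of 10.37 and 9.42, and the sign of its difference turned under some alternatives.

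In complex III all 6 genes had a difference above 0, with a median of 0.66. Uqcrc1, a matrix-facing subunit related to mitochondrial processing peptidases, read 8.02, 7.73 and 8.27 in wild-type fetal, 7.98, 7.89 and 8.05 in knockout fetal, and 6.93 and 6.86 in adult cells. It was 2.16-fold higher in wild-type fetal than adult cells (log2 1.11, SE 0.19, adjusted p = 0.019), with a positive difference in all 15 probe sets and no overlap in 11. Its partner Uqcrc2 differed by 0.65 (SE 0.17, adjusted p = 0.0717) and Uqcrfs1, the Rieske iron-sulfur protein, by 0.72 (SE 0.18, adjusted p = 0.073). Neither was called, although for both the groups of arrays did not overlap. Uqcrh, the hinge protein that docks cytochrome c1, differed by 0.43 (SE 0.17, adjusted p = 0.23), from 11.38, 11.34 and 11.59 in wild-type fetal to 11.21 and 10.81 in adult cells.

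Complex IV divided into ubiquitous subunits and tissue-restricted isoforms. All 9 ubiquitous genes had a difference above 0, with a median of 0.56 and 1 call. That call was Cox7a2, the widely expressed isoform of a membrane-spanning subunit, which read 9.11, 9.25 and 9.45 in wild-type fetal, 8.84, 8.96 and 9.16 in knockout fetal, and 8.53 and 7.59 in adult cells. It was 2.31-fold higher in wild-type fetal than adult cells (log2 1.21, SE 0.26, adjusted p = 0.043), and its adult arrays had an SD of 0.67. Cox5a differed by 0.73 (SE 0.20, adjusted p = 0.0828), Cox7b by 0.67 (SE 0.18, adjusted p = 0.0886) and Cox6b1, at the interface of the complex IV dimer, by 0.64 (SE 0.18, adjusted p = 0.0962). For Cox4i1, a subunit implicated in the regulation of the enzyme by ATP, the wild-type fetal values of 11.48, 11.17 and 11.27 lay above the adult values of 10.86 and 10.64 (log2 0.56, SE 0.21, adjusted p = 0.197). The ubiquitous Cox6a1, Cox8a and Ndufa4, which despite its name is a complex IV subunit, differed by 0.40, 0.31 and 0.46, and none of them was called.

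Of the 8 tissue-restricted isoforms, among them those known from muscle, testis and lung, 3 were above 0, the median was -0.03 and none was called in the limma fit, with 1 at an unadjusted p under 0.05. Cox7b2, Cox8b and Ndufa4l2 were below background in every group and Cox8c and Cox7a1 in some, so a change in these 5 could hardly be seen, and the difference from the ubiquitous subunits was not tested. Cox8c, known from testis, read 5.73, 5.86 and 5.19 in wild-type fetal cells against 5.96 and 6.41 in adult cells, and was not called (log2 -0.59, SE 0.25, adjusted p = 0.243). Its bound of at least 1.16-fold lower in wild-type fetal cells rests on adult replicate 2, as adult replicate 1 lay below the background of 5.97. Cox6b2, also known from testis, was above background, with 9.10, 8.58 and 8.50 in wild-type fetal, 7.60, 8.20 and 8.64 in knockout fetal, and 8.58 and 7.49 in adult cells, and its groups overlapped. Cox4i2, the isoform known from lung, and Cox6a2, known from heart and muscle, differed by -0.02 and 0.13. Cox7a1, of muscle as well, read 5.26, 6.13 and 6.61 in wild-type fetal and 6.35 and 5.56 in adult cells, around the background level and with a mean below it in adult cells, so no difference is given. The sign turned under at least 1 alternative for Cox4i2 and Cox6a2.

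Complex V had 12 genes above 0 of 12, with a median of 0.62 and 9 at an unadjusted p under 0.05. Atp5c1, the gamma subunit that turns as the central shaft, read 10.50, 10.32 and 10.73 in wild-type fetal, 10.59, 10.52 and 10.52 in knockout fetal, and 9.57 and 9.83 in adult cells. This 1.76-fold difference between wild-type fetal and adult cells (log2 0.82, SE 0.18, adjusted p = 0.0414) was positive in 5 of 6 probe sets but free of overlap in 2, with differences from -0.05 to 2.26. Atp5k, subunit e of the membrane part, which joins ATP synthase dimers, read 10.90, 10.64 and 11.19, then 10.92, 10.99 and 11.14, against 10.12 and 9.98 in adult cells. Here all 4 probe sets separated the groups, with a 1.81-fold difference (log2 0.86, SE 0.19, adjusted p = 0.0464). The catalytic beta subunit gene Atp5b differed by 0.58 (SE 0.15, adjusted p = 0.0781) and the alpha subunit gene Atp5a1 by 0.52 (SE 0.17, adjusted p = 0.151), with no overlap for either. Atp5f1, of the peripheral stalk, differed by 0.61 (SE 0.17, adjusted p = 0.0906). Of the genes for the c-ring, Atp5g3 was the member measured, with 11.23, 10.85 and 10.76 in wild-type fetal against 10.84 and 9.99 in adult cells (log2 0.53, SE 0.26, adjusted p = 0.31). Atp5g1 and Atp5g2 were not analysed here.

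For the 4 genes whose proteins lie outside the complexes the median was 0.16. None was called by limma, and none reached an unadjusted p under 0.05. Cox4nb is an older symbol of Emc8, of the endoplasmic reticulum membrane complex, and Atp5sl and Atp5s are now Dmac2 and Dmac2l. Cox7a2l, a factor for respiratory supercomplexes measured by 1 probe set, read 10.31, 10.27 and 10.26 in wild-type fetal and 10.29 and 10.14 in adult cells, a difference of 0.06 (SE 0.16, adjusted p = 0.866) whose sign turned after quantile normalization and without adult replicate 2. Leaving out these genes and the restricted isoforms, 61 of 63 subunit genes were above 0 with a median of 0.60.

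**Figure D2:**
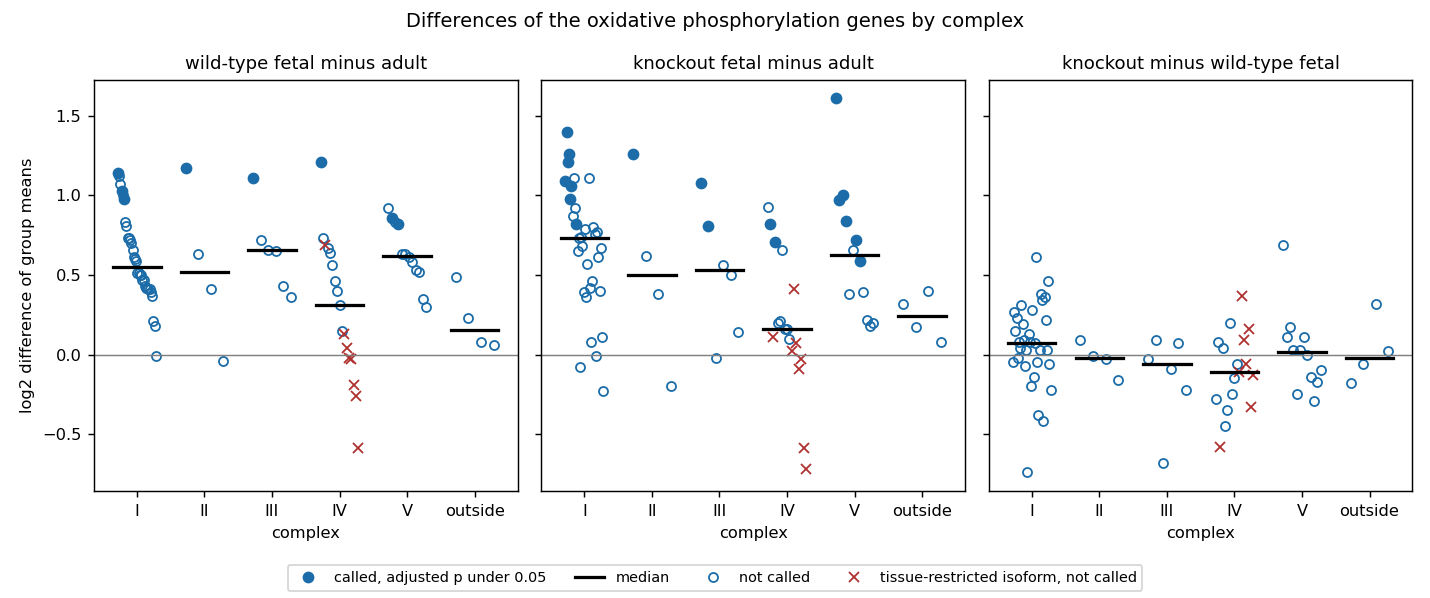
Log2 difference of group means (vertical axis) for each oxidative phosphorylation gene, by complex, in the 3 comparisons; filled points are called at an adjusted p under 0.05, crosses are tissue-restricted isoforms and bars are medians. Against adult cells the medians of complexes I to V lie between 0.31 and 0.66 for wild-type fetal and between 0.16 and 0.74 for knockout fetal cells; between the fetal genotypes they lie between -0.11 and 0.08.

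At the level of probe sets, 364 of 420 were higher in wild-type fetal than adult cells. The arrays did not overlap for 184 of them (43.8%), against 12.8% of all probe sets, and in the opposite direction for 10 (2.38%), against 12.5% of all. Probe sets of a gene are not independent, so these shares are descriptive.

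The adult arrays differed from each other in these genes. Adult replicate 1 read higher than adult replicate 2 for 53 of 75 genes, by a median of 0.34, and 10 genes differed by over 1. Over all genes, replicate 1 was higher for 52.4%, by a median of 0.02. Complex I showed a median gap of 0.48, complex III of 0.37, complex V of 0.26, complex IV of 0.22 and complex II of 0.05. The median SD of the 75 genes was 0.31 in adult, 0.23 in wild-type fetal and 0.17 in knockout fetal cells, whereas over all genes it was 0.17, 0.22 and 0.18. The size of the fetal-to-adult difference therefore depended on the adult array: the median of 0.52 was 0.69 without adult replicate 1 and 0.33 without adult replicate 2. For complex III, the median of 0.66 was 0.36 without adult replicate 2, and for complex I, 0.55 became 0.34. Complex II moved the other way, to 0.65. Summed over the 75 genes, linear intensity was 55829 to 65422 in wild-type fetal, 57892 to 61349 in knockout fetal, and 47802 and 37408 in adult cells, so both adult arrays lay below all fetal arrays. This separation is not particular to these genes. Summed over all genes above background, intensity was 2454869 to 2642244 in wild-type fetal and 2540753 to 2595829 in knockout fetal cells. In adult cells that sum was 2172609 and 2113191.

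**Figure D3:**
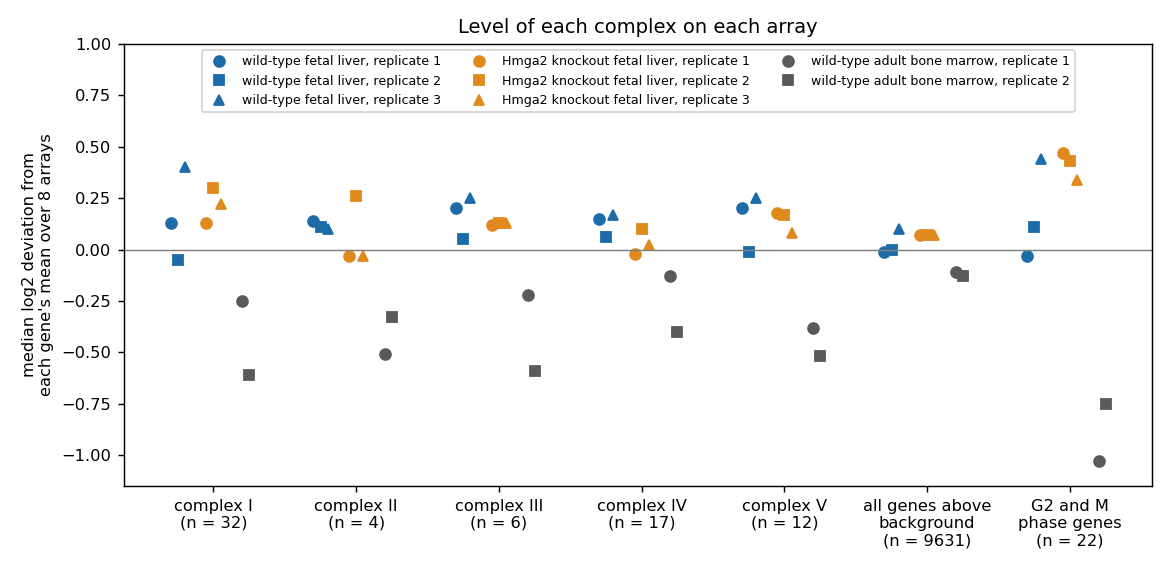
Median log2 deviation from each gene's mean over the 8 arrays (vertical axis), per array, for complexes I to V, for all genes above background and for G2 and M phase genes. Adult replicate 1 lies at -0.25 and replicate 2 at -0.61 for complex I, while the fetal arrays lie between -0.05 and 0.40.

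Knockout fetal cells were compared with the same adult arrays, so this result and the former share their controls. In knockout fetal cells 18 of the 75 genes were called higher than in adult cells, against 5.8% of all genes. None was called lower by limma, and 2 were lower at an unadjusted p under 0.05. With only probe sets above the olfactory receptor median, Cox7b2 and Cox8c were called lower and 16 genes higher. The differences were above 0 for 66 genes, with a median of 0.56, where all genes had -0.07 and genes above background 0.20. Of the 9631 genes above background, 1094 were called higher and 6206 were above 0. For the 70 oxidative phosphorylation genes among them, the counts were 17 and 65. By complex the medians were 0.74 for complex I with 7 calls, 0.50 for complex II with 1, 0.53 for complex III with 2, 0.16 for complex IV with 2, and 0.62 for complex V with 6. Over the 9 ubiquitous genes of complex IV alone, the median was 0.21. Of the 8 genes called for wild-type fetal cells, 7 were called here as well, and Cox7a2 was not (log2 0.93, SE 0.26, adjusted p = 0.0573). Leaving out knockout replicate 1, 2 or 3 lowered the count to 4, 2 or 4, and leaving out adult replicate 1 or 2 to 7 or 8. Over all genes the calls higher also fell, from 1158 to 436, 343 or 442 without knockout replicate 1, 2 or 3. The median over the 75 genes was 0.71 without adult replicate 1 and 0.39 without adult replicate 2.

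Among the further genes called in this comparison, Ndufb3, an accessory subunit of the complex I membrane arm, read 8.62, 8.69 and 8.58 in knockout fetal, 8.09, 8.19 and 8.79 in wild-type fetal, and 7.79 and 6.68 in adult cells. All fetal arrays lay above the adult arrays, which were themselves far apart, with a difference between knockout fetal and adult cells of 1.40 (SE 0.32, adjusted p = 0.0314). Ndufs8, an iron-sulfur core subunit, differed by 1.21 (SE 0.30, adjusted p = 0.0414), Ndufa8 by 0.98 (SE 0.23, adjusted p = 0.0327) and Ndufa9, an accessory subunit near the quinone site, by 0.82 (SE 0.20, adjusted p = 0.0374). In complexes III and IV the further calls were Uqcrfs1 (log2 0.81, SE 0.18, adjusted p = 0.0307), Cox5a (0.82, SE 0.20, adjusted p = 0.0366) and Cox7b (0.71, SE 0.18, adjusted p = 0.0456). Atp5h, subunit d of the peripheral stalk, rests on 1 probe set and read 9.91, 10.20 and 10.01 in knockout fetal, 9.60, 8.44 and 10.01 in wild-type fetal, and 8.31 and 8.54 in adult cells. It showed the largest difference of the called genes in this comparison, 3.06-fold (log2 1.61, SE 0.38, adjusted p = 0.0344), and wild-type fetal replicate 2 lay among the adult values. Atp5f1 (0.72, SE 0.17, adjusted p = 0.0333) and Atp5b (0.59, SE 0.15, adjusted p = 0.0461) were called too. Atp5j, also measured by 1 probe set, was called (adjusted p = 0.0461) but was below background in every group, so no fold is given.

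The calls of Sdhb and Uqcrc1 held under more alternatives than those of the other called genes. In knockout fetal against adult cells Sdhb was called as reported (log2 1.26, adjusted p = 0.0103) and under all 18 alternatives, with adjusted p up to 0.0369, and Uqcrc1 (log2 1.08, adjusted p = 0.0143) was called under 17 of 18. In wild-type fetal against adult cells both were called under 13 of 18 alternatives. With each of the 8 arrays left out in turn, Sdhb was called in 5 and Uqcrc1 in 6 of these fits, against 2 for Ndufv2, 1 each for Ndufs4, Ndufb5 and Cox7a2, and 0 for Atp5k and Atp5c1. Over the 18 alternatives the log2 difference stayed between 1.06 and 1.38 for Sdhb and between 0.98 and 1.48 for Uqcrc1.

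The comparison of the fetal genotypes asked what the loss of Hmga2 does to these genes. None of the 75 was called in the limma fit, and 1 had an unadjusted p under 0.05, against 0.01% of all genes called and 7.63% under the unadjusted threshold. Differences were above 0 for 39 genes and below for 36, with a median of 0.02 and a range of -0.74 to 0.69, while all genes had a median of -0.02. The medians were 0.08 for complex I, -0.02 for complex II, -0.06 for complex III, -0.11 for complex IV (-0.15 over its 9 ubiquitous genes) and 0.01 for complex V. With a median SE of 0.20 over these genes, small differences could not be resolved, and the missing calls do not show that the genotypes are alike. Over all genes, wild-type fetal replicate 3 correlated more with the knockout arrays (r = 0.9739 to 0.9750) than with its own group (0.9568 and 0.9647). Without this array, 9 of the 75 had an unadjusted p under 0.05 in limma, against 0 and 1 without wild-type fetal replicates 1 and 2. The count of called genes was 0 under every alternative and with every array left out.

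The gene with the smallest p was Cox6b1, which read 11.41, 11.11 and 11.07 in wild-type fetal and 10.69, 10.64 and 10.92 in knockout fetal cells. All knockout arrays lay below all wild-type arrays, and the adult values of 10.67 and 10.44 overlapped those of the knockout, but the difference of -0.45 (SE 0.16) had an unadjusted p of 0.0219 and an adjusted p of 0.632. Arrays of the genotypes did not overlap for 6 genes, all lower in the knockout, against 7.86% of all genes lower, and for 0 genes higher, against 5.94% of all genes. Besides Cox6b1 these were Ndufv3, Uqcr, Cox4i1, Atp5a1 and Atp5j2, of which Ndufv3 and Atp5j2 are named after their values were seen. Cox4i1 read 10.59, 11.12 and 11.16 in knockout against 11.48, 11.17 and 11.27 in wild-type fetal cells (log2 -0.35, SE 0.19, adjusted p = 0.671), so the nearest arrays of the groups were almost level. For Atp5a1 the knockout values were 10.17, 10.07 and 10.00 and the wild-type values 10.41, 10.46 and 10.24 (log2 -0.29, SE 0.16, adjusted p = 0.668). Uqcr, the current Uqcr11, rests on 1 probe set and differed by -0.68 (SE 0.34, adjusted p = 0.664). The largest positive values were Atp5h, at 0.69 (SE 0.34, adjusted p = 0.66), and Ndufb10, at 0.61 (SE 0.27, adjusted p = 0.647), with overlapping arrays in both. Of the probe sets, 26 (6.19%) were higher and 39 (9.29%) lower in the knockout without overlap, against 6.57% of all probe sets in each direction.

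Other mitochondrial genes were set beside the subunits, in wild-type fetal against adult cells. There 2.36% of all genes, and 456 of the 9631 above background, were called higher. Genes above background had a median of 0.15. Of 17 genes listed for the TCA cycle and pyruvate dehydrogenase, which feed electrons to the chain, 15 were measured, all were above 0 with a median of 0.87, and 5 were called. Pdha1, the catalytic alpha subunit of pyruvate dehydrogenase, averaged 9.49 ± 0.25 (SD, n = 3) in wild-type fetal, 9.14 ± 0.35 (SD, n = 3) in knockout fetal and 7.31 ± 0.43 (SD, n = 2) in adult cells. Its fetal and adult arrays did not overlap, with a 4.53-fold difference (log2 2.18, SE 0.27, adjusted p = 0.00582 in limma), and it was called with any array left out. Mdh2, malate dehydrogenase, differed by 1.22 (adjusted p = 0.031), Cs, citrate synthase, by 0.92 (adjusted p = 0.0322) and Dld, the dehydrogenase subunit shared by several such complexes, by 0.87 (adjusted p = 0.0234). Of 20 measured genes of mitochondrial import and protein folding, of 25 listed, 20 were above 0 with a median of 0.64 and 4 were called. These were the processing peptidase subunits Pmpcb (log2 1.18, adjusted p = 0.019) and Pmpca (0.90, adjusted p = 0.0424), the chaperone Hspa9 (1.06, adjusted p = 0.0418) and the translocase subunit Timm21 (1.25, adjusted p = 0.0386). With wild-type fetal replicate 1, 2 or 3 left out, 3, 2 or 1 genes of the TCA list and 0, 2 or 0 of the import list were called. With knockout replicate 1, 2 or 3 left out it was 2 genes each time for the TCA list and 2, 1 and 1 for import, and without either adult array 3 for both lists.

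Assembly factors, which build the complexes but are not part of them, had 45 of 50 genes measured, 38 above 0 and a median of 0.32 (0.15 over all genes above background). They had 2 calls, a share near that of the genes above background (456 of 9631), where all genes had 2.36%. The calls were Uqcc2, for complex III (log2 1.31, SE 0.26, adjusted p = 0.0339), and Acad9, for complex I (0.76, SE 0.17, adjusted p = 0.0493). Genes that maintain or transcribe mitochondrial DNA had 16 of 18 measured, a median of 0.12 and 2 calls. Tfam, which packages and transcribes mitochondrial DNA, read 7.97, 7.57 and 7.81 in wild-type fetal, 8.50, 7.92 and 8.36 in knockout fetal, and 6.84 on both arrays in adult cells (log2 0.94, SE 0.21, adjusted p = 0.0462). Lrpprc, which stabilises mitochondrial mRNAs, was the other (0.88, SE 0.18, adjusted p = 0.0356). None of the 14 regulators of respiratory genes was called, with 5 higher at an unadjusted p under 0.05 and a median of 0.25. Among them Hif1a, the hypoxia-inducible factor, differed by 0.73 (SE 0.18, adjusted p = 0.0601) and Pprc1, a coactivator of the PGC-1 family, by 0.77 (SE 0.21, adjusted p = 0.0876). Cytochrome c and coenzyme Q genes (16 measured, median 0.19) and carriers of ATP and ADP with the uncoupling proteins (9 of 12 measured, median -0.05) had no call, with 0 and 4 genes at an unadjusted p under 0.05. Of the latter 4 genes, 3 were higher and 1 was lower in wild-type fetal cells. The lower one, Ucp2, read 8.31, 7.95 and 7.83 in wild-type fetal against 8.69 and 8.59 in adult cells (log2 -0.61, SE 0.18, adjusted p = 0.112). The calls of the assembly factors and the mitochondrial DNA genes fell to 0 or 1 with any of the 8 arrays left out, and among the regulators 1 gene was called without adult replicate 2.

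**Figure D4:**
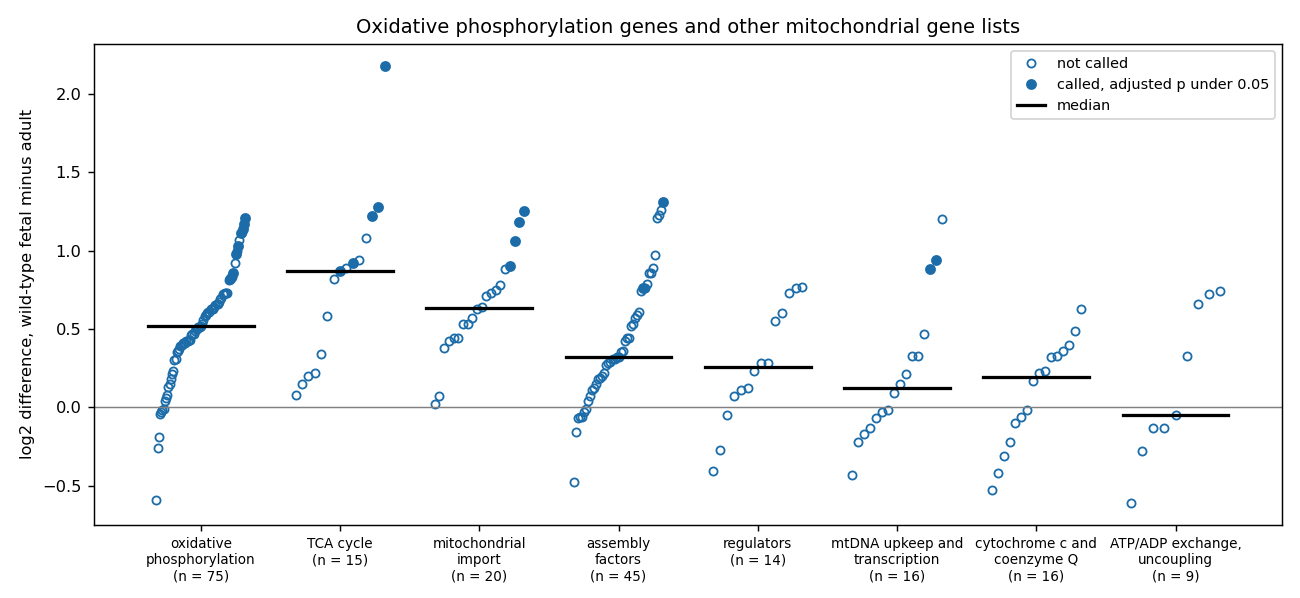
Log2 difference between wild-type fetal and adult cells (vertical axis) for each gene of the oxidative phosphorylation set and of 7 other mitochondrial lists; filled points are called at an adjusted p under 0.05 and bars are medians. The medians run from 0.87 for the TCA cycle to -0.05 for ATP and ADP exchange and uncoupling.

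In knockout fetal against adult cells, 5.8% of all genes, and 1094 of the 9631 above background, were called higher. Called higher there were 7 of 15 TCA cycle genes, 5 of 20 import genes and 10 of 45 assembly factors. So were 3 of 16 mitochondrial DNA genes, 4 of 14 regulators and 2 of 9 genes of ATP and ADP exchange. With each array left out in turn these counts ranged from 2 to 8, 3 to 6, 2 to 15, 2 to 3, 1 to 4 and 0 to 3, with the lowest counts in fits without a knockout or an adult array. The 4 regulators were Hif1a (log2 0.96, adjusted p = 0.0171), Pprc1 (0.99, adjusted p = 0.0259), Yy1 (0.61, adjusted p = 0.0493) and Nrf1 (0.84, adjusted p = 0.0183). Between the fetal genotypes no gene of these lists was called by limma. At an unadjusted p under 0.05, 5 assembly factors were higher and 1 lower in the knockout, and the other lists had 1 or 2 genes each. Nrf1, whose product binds the NRF1 site, is named here after its values were seen. It read 7.21, 7.26 and 7.31 in knockout and 6.71, 6.55 and 6.86 in wild-type fetal cells. These arrays did not overlap, as for 5.94% of all genes higher in the knockout. Nrf1 was not called (log2 0.56, SE 0.14, adjusted p = 0.577), and a link to the NRF1 letters was not tested.

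Part of the genes of the G2 and M phases were called higher in fetal cells. Of all genes, 2.36% were called higher in wild-type fetal and 5.8% in knockout fetal than adult cells. Genes above background had medians of 0.15 and 0.20. All 22 G2 and M phase genes measured, of 23 listed, were above 0 in wild-type fetal against adult cells, with a median of 1.07. Of these, 11 were called, among them Ccna2 (log2 1.72, adjusted p = 0.00497), Ube2c (1.47, adjusted p = 0.0067), Hmmr (1.53, adjusted p = 0.00995) and Bub1 (1.45, adjusted p = 0.0127). The count was 4 without adult replicate 1, 8 to 12 with another array left out, and 2 at the lowest over all 18 alternatives. In knockout fetal against adult cells 15 of the 22 were called higher, and 9 to 18 under the alternatives. Their summed intensity was 8743 to 11507 in wild-type fetal, 10706 to 11945 in knockout fetal and 4158 to 6016 in adult cells. Over all genes above background the sum was lower in adult cells too, at 2172609 and 2113191. There it was 2454869 to 2642244 in wild-type fetal and 2540753 to 2595829 in knockout fetal cells. Within the adult group the G2 and M phase genes ran against the oxidative phosphorylation genes: adult replicate 1 was lower for the cell-cycle genes (median deviation -1.03, against -0.75 in replicate 2) and higher for the subunits (-0.21, against -0.56). The part of the cell-cycle genes in the result was not tested.

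Markers of other cells were read first in wild-type fetal against adult cells. Of 7 erythroid markers measured, 6 or 7 were below background in each group, and of 9 hepatocyte markers 5 or 6 were, Alb and Afp among them in all groups. Neither list had a call, with 0 erythroid and 1 hepatocyte marker at an unadjusted p under 0.05. Lymphoid markers (10 measured, 7 to 9 below background in each group) and endothelial markers (7 measured, 3 to 5 below) had no call either, with 1 lymphoid marker lower and 3 endothelial markers higher at an unadjusted p under 0.05. Megakaryocyte markers had a difference below 0 for 5 of 7 genes, with Pf4 (at least 4.36-fold, adjusted p = 0.0216) and Itga2b (1.68-fold, adjusted p = 0.0439) called lower in wild-type fetal cells. They summed to 370 to 440 in wild-type fetal, 375 to 557 in knockout fetal and 783 to 790 in adult cells. Of 9 myeloid markers, Ctsg was called lower in wild-type fetal cells (at least 1.48-fold, adjusted p = 0.0254), and the list summed to 2428 to 2998, 2292 to 2730 and 1806 to 2347 in the same order of groups. With any array left out, at most 1 gene of either list was called. Stem and progenitor markers, 11 measured, had a median of -0.40 and no call, although before adjustment 1 was higher and 4 were lower with p under 0.05. In knockout fetal against adult cells the lymphoid marker Rag1 (at least 2.54-fold, adjusted p = 0.0491) and the endothelial marker Cdh5 (at least 1.09-fold, adjusted p = 0.0314) were called higher. Called lower there were Pf4 (3.73-fold, adjusted p = 0.0359), Itga2b (1.58-fold, adjusted p = 0.0402) and, of the stem and progenitor list, Ly6a. The lymphoid list summed to 581 to 1026 in knockout fetal and 471 to 489 in adult cells, and the endothelial list to 712 to 808 and 572 to 639. Leaving out arrays brought the count of each of these lists to 0 in at least 1 fit. The part of these differences in the result was not tested.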

How the data were processed

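RNA of 8 sorted samples was amplified, labelled with biotin and measured on Affymetrix arrays, per the labels' protocols. The deposited values are linear intensities of 225993 probe sets, made with RMA per the submitters' processing notes (version not given in the sources used here), from 3.03 to 13252. Array medians were 6.20 to 6.27 after log2 transformation, so no normalization was added. A second deposited table of exon intensities, with 180224 of 199508 rows equal to a probe set, served as an alternative.

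Log2 values were averaged over probe sets with exactly 1 platform gene symbol. The 7 probe sets that pair a member with other symbols were left out, and 5 member symbols have a newer name in the RefSeq table (GRCm38.p6). Groups follow the sample titles. All arrays entered a single limma fit (limma 3.58.1 in R 4.3.3, lmFit and eBayes defaults, 1 coefficient per group), and two-sided p-values were adjusted by Benjamini-Hochberg over 19958 genes. The number of arrays, 2 or 3 per group, limits the precision, and p-values measure the spread between samples named biological replicates. The code was tested on simulated data.

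Where the dimmer group lay below background, its arrays were raised to the background level and the fold is a lower bound. No fold is given where both groups lay below it. The members, lists, markers and tests were chosen with earlier results of these data known. Named genes are every member called in any comparison, per complex the 4 with the smallest p for wild-type fetal against adult and the 2 with the smallest p for the genotypes, members lower in fetal cells at an unadjusted p under 0.05, isoform sets, c-ring genes, members below background, catalytic subunits, and at most 4 genes of each other list. Alternatives changed the groups in the fit, a replicate block, the variance prior, array weights, scaling, the summary and filter of probe sets, a gene filter, the table, the members, the threshold and the arrays left out. Same-numbered samples did not deviate together (correlations of -0.038 to 0.112), so the numbers were not taken to pair samples.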

Additional observations from a re-analysis of the deposited data

How the results depend on the processing

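The median log2 difference over the oxidative phosphorylation genes moved by less than the spread between replicates under every alternative. It ran from 0.33 to 0.69 for wild-type fetal against adult (0.52 as reported), from 0.39 to 0.71 for knockout fetal against adult (0.56) and from -0.04 to 0.07 between the fetal genotypes (0.02), with the extremes in the fits that left out an adult or a wild-type fetal array. For the fits without an adult array this yardstick decides little, because it was itself taken in part from the gap between the 2 adult arrays. A fit of only the 2 groups compared leaves the differences as they are. Counts of called genes moved more than the medians. For wild-type fetal against adult, 8 as reported, the count was 0 in a fit of only these groups (32 at an unadjusted p under 0.05), 4 with array weights, 5 after quantile normalization, 1 with the median of probe sets, 3 from the exon table, 20 at an adjusted p under 0.1, and 1 to 7 when each array was left out. For knockout fetal against adult, 18 as reported, it was 4 with the median of probe sets, 32 at an adjusted p under 0.1 (31 higher and 1 lower), 18 with only probe sets above the olfactory receptor median (16 higher, and Cox7b2 and Cox8c lower), and 2 to 24 when each array was left out. Between the fetal genotypes it stayed 0, with 0 to 9 at an unadjusted p under 0.05. Calls over all genes moved too. For wild-type fetal against adult, 471 genes were called higher as reported, 74 in the fit of only these 2 groups and 128 with the median of probe sets. For knockout fetal against adult, 1158 were called higher as reported and 543 with the median of probe sets. The causes of these shifts were not tested. Of the values of single genes and complexes, 2157 kept their side of the threshold or moved within their spread, 374 called ones lost the call, 10 gained one, 15 medians of a complex moved beyond their spread, and no called value changed sign. With 2 adult arrays, a fit without either assumes that the lone array varies like the other groups.

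With the replicate number as a block, 1 gene was called for wild-type fetal against adult, 3 for knockout fetal against adult and 0 between the genotypes. The numbers are not shown to pair the samples, so this fit is no measure of a weaker effect.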
